A study of Mus musculus with 8 samples.

Results

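Regulators of the mTOR pathway and its translation switches were followed in polyribosome-associated mRNA of mouse brain. They were chosen by name: Mtor, Rptor, Rictor, Tsc1, Tsc2, Ddit4, Rps6kb1, Eif4ebp1, Eif4ebp2 and Eef2k, each represented by its RefSeq row of highest summed count, so that all 10 were found among 21643 genes of the count table. The libraries came from C57Bl/6 mice aged 7 to 9 weeks, with no transgene or drug named in any group. Controls had been exposed to the context alone, and conditioned mice had gone through contextual fear conditioning, in which a chamber is paired with foot shock. Tissue was taken 1 h or 6 h later from frontal cortex (prefrontal cortex in the protocol text) or hippocampus, with 1 library for each of the 8 combinations. The protocol counts 4 control and 4 conditioned mice and names only the prefrontal cortex, and no source used here ties a mouse to a library or says if 1 mouse gave both tissues. The p-values therefore describe the scatter of these libraries, part of which may be technical.

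mTOR is a serine/threonine kinase that works in a pair of complexes. With Raptor it forms mTORC1, which reads growth factors, amino acids and energy and drives cap-dependent translation, and with Rictor it forms mTORC2, which phosphorylates AKT. The TSC1-TSC2 complex holds mTORC1 back by switching off the GTPase Rheb. Active mTORC1 phosphorylates S6 kinase and the 4E-BPs, small proteins that otherwise sequester the cap-binding factor eIF4E. In neurons this pathway is known for its place in long-lasting synaptic plasticity and in the protein synthesis that memory consolidation needs. The libraries hold mRNA, so they measure how much message of these regulators was recovered with polyribosomes and not the activity of the kinase.

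The 4E-BPs are compared first at the sequence through which they act. The coding sequences of Eif4ebp1 (117 codons before the stop) and Eif4ebp2 (120 codons) each held 1 match to the canonical eIF4E-binding motif, a tyrosine followed after 4 residues by a leucine and a hydrophobic residue. The stretches are shown because they hold the surface that competes with eIF4G for eIF4E. They were read from the GENCODE transcripts linked to the RefSeq rows (GRCm38), on the coding strand, with positions counted from the A of the start codon, and the 7 codons of the motif are in capitals.
Eif4ebp1, coding bases 121 to 210: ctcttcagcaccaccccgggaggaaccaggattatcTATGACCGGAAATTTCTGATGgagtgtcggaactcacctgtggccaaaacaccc
Eif4ebp2, coding bases 124 to 213: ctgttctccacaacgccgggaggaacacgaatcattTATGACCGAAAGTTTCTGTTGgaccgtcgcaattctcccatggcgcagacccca
The windows were identical at 65 of 90 bases (72.2%). Despite that likeness the messages differed widely in abundance. Eif4ebp2 held 903 counts over the 8 libraries and Eif4ebp1 held 27.

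Levels between genes were compared per length, as CPM (counts scaled to a common library size) per kilobase of transcript (RPKM), over 7 libraries. A pair of libraries at 1 h was counted once in every n here and below, for the reason given in the next paragraph. Mtor stood at 16.8 ± 3.39 RPKM (mean ± SD) and Tsc2, the GTPase-activating subunit of the TSC complex, at 16.4 ± 6.32 RPKM. Rps6kb1, the S6 kinase, had 10.9 ± 8.57 RPKM, Rptor, the scaffold of mTORC1, 9.78 ± 3.62 RPKM, and Ddit4, the stress-induced REDD1, 9.35 ± 3.96 RPKM. Tsc1, the stabilising subunit of the TSC complex, had 7.00 ± 0.722 RPKM and Rictor 6.64 ± 2.76 RPKM. Eef2k, the calmodulin-dependent kinase that stops elongation, was lower at 1.26 ± 0.351 RPKM, and Eif4ebp1 was lowest at 0.381 ± 0.211 RPKM. Eif4ebp2 came to 18.3 ± 7.67 RPKM on the 1422-base transcript linked to its row, or a mean of 4.49 RPKM on its longest coding transcript of 5784 bases. Its rank among the members therefore depends on the transcript length used. From Mtor down to Rictor, the ranges of neighbours in this order overlapped, though the Ddit4 mean lay above the highest Tsc1 library (8.23 RPKM). The highest Eef2k library (1.67 RPKM) was below the lowest of every member above it, while the highest Eif4ebp1 library (0.656 RPKM) just reached the lowest of Eef2k (0.614 RPKM).

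The library totals ran from 2370973 to 5296986 counts. The conditioned libraries at 1 h, one labelled cortex and the other hippocampus, agreed within sampling noise (mean chi-square per gene of 1.06, where 1 is counting noise, over 11338 genes, with 0 genes at an adjusted p of 0.05, against 4.74 for the next closest pair of libraries). Both held markers of either tissue at levels between the 1 h controls, so they were summed and counted as 1 library of no single tissue. Summed markers of hippocampal excitatory neurons reached 539 to 1094 CPM in the 3 remaining hippocampus libraries and 78.9 to 100.7 CPM in the 3 cortex libraries, as the labels say. Markers of endothelial cells were near 0 (0.787 to 5.23 CPM summed, all 5 at 0 in at least 1 library). The hippocampus control 6 h library stood apart, with the lowest total and 8.01% of its counts on Kif5c, a neuronal kinesin. Fewer cells of a type and less RNA per cell cannot be told apart in such tissue libraries.

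**Figure D1:**
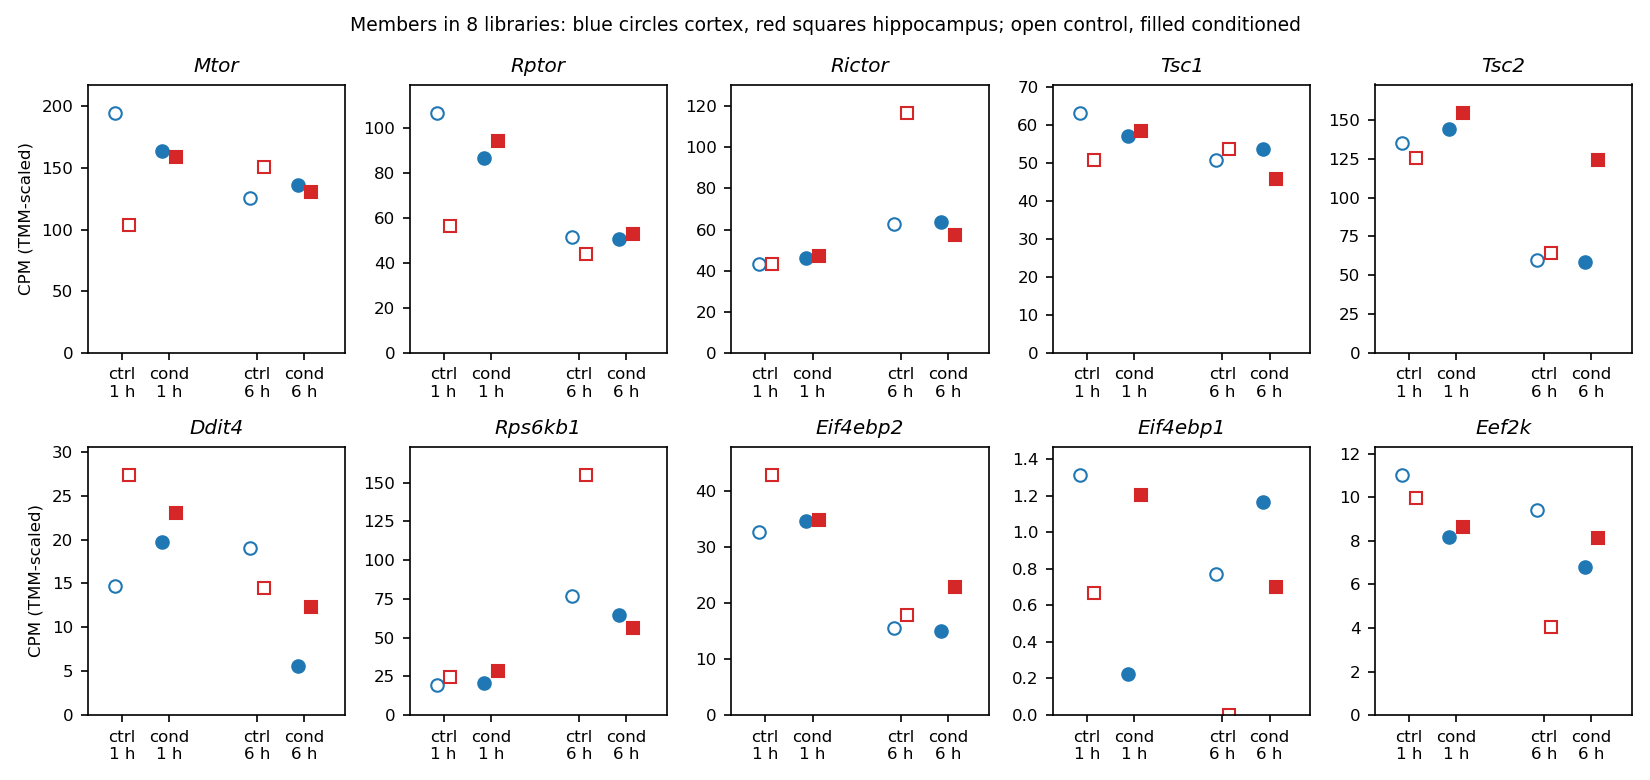
Normalised counts (CPM, y axes from 0) of the 10 members in each of the 8 libraries, by training and time (x axes), with blue circles for cortex and red squares for hippocampus, open for control and filled for conditioned. Rps6kb1 was higher and Eif4ebp2 lower in all 4 libraries at 6 h than in those at 1 h, and Eif4ebp1 did not exceed 1.31 CPM.

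The comparison of 6 h with 1 h asks how the pathway's messages differed with time after the session, over both tissues and training states. The test passed 4 members: Rps6kb1 rose 3.76-fold, and Eif4ebp2 (2.09-fold), Tsc2 (1.95-fold) and Rptor (1.71-fold) fell. Thus 1 of the 9 tested members rose, where 20.5% of all 16378 rows were called higher, and 3 fell, where 17.2% were called lower. With 37.7% of all rows called in either direction (37.9% with 1 row per gene), the members' share was close to that of the table as a whole. Eif4ebp1 did not pass the filter on low counts. The median log2 change was -0.41 over the 9 members and -0.03 over all rows.

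S6 kinase had the largest log2 change of the 9 members in the fit without GC and length offsets; with them Tsc2 (-0.52) and Eef2k (-0.51) were as far from 0 as Rps6kb1 (0.48), and none of these passed. Rps6kb1 stood at 19.1 CPM in the cortex control and 24.7 CPM in the hippocampus control at 1 h, and at 20.7 and 28.1 CPM in the conditioned pair. At 6 h it stood at 77.02 CPM in the cortex control, 64.8 CPM in the cortex conditioned, 154.7 CPM in the hippocampus control and 56.2 CPM in the hippocampus conditioned library. The groups did not overlap, and the hippocampus control 6 h library was far above the others. The log2 change was 1.91 (SE 0.32, edgeR adjusted p = 0.0064) and was positive in 4 of 4 strata, from 1.20 to 2.63, of which the conditioned strata share the 1 h pair. Without the hippocampus control 6 h library it was 1.53 (SE 0.23, adjusted p = 0.00219), whereas the call was lost without the cortex control 1 h library (1.78, adjusted p = 0.071) and with GC and length offsets (adjusted p = 0.134). The other RefSeq row of the gene, which may share reads with the first, moved by 1.36 (SE 0.34, adjusted p = 0.0147).

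The message of the mTORC1-restrained repressor moved the other way. Eif4ebp2, the 4E-BP that predominates in brain, stood at 32.8 CPM (cortex control), 42.9 CPM (hippocampus control) and 34.8 and 34.9 CPM (the pair) at 1 h. The 6 h values were 15.6 and 14.97 CPM in the cortex control and conditioned libraries and 17.9 and 22.8 CPM in the hippocampus control and conditioned libraries. Every 6 h library lay below every 1 h library. The mean fell from 36.8 ± 5.33 CPM (SD, n = 3) to 17.8 ± 3.57 CPM (n = 4), a log2 change of -1.06 (SE 0.25, edgeR adjusted p = 0.0116). Eif4ebp1 had 0 to 6 counts in a library. The hippocampus control 6 h library held 0, which allows a level of up to 1.73 CPM (3 counts on the same TMM scale), so a change in Eif4ebp1 was not detectable at this depth.

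Among the subunits of the kinase complexes, Rptor and Rictor differed in direction while Mtor itself did not pass. Rptor stood at 106 CPM in the cortex control, 56.4 CPM in the hippocampus control and 86.3 and 94.0 CPM in the pair at 1 h, and between 43.9 and 52.7 CPM in the 4 libraries at 6 h. The groups lay close but did not overlap, and the log2 change was -0.77 (SE 0.25, edgeR adjusted p = 0.0357). Rictor stood between 43.0 and 47.1 CPM in the libraries at 1 h. At 6 h it stood at 62.6 CPM in the cortex control, 63.8 CPM in the cortex conditioned, 116.6 CPM in the hippocampus control and 57.3 CPM in the hippocampus conditioned library. These groups did not overlap either, but the log2 difference of 0.74 (SE 0.28) missed the threshold with an edgeR adjusted p of 0.0583. Mtor had 194.5 and 104 CPM in the cortex and hippocampus controls at 1 h, 164 and 159 CPM in the pair, and 126 to 151 CPM at 6 h. Its 1 h controls lay on either side of the 6 h libraries, and its log2 difference was -0.17 (SE 0.26, adjusted p = 0.623).

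Among the messages of the TSC brake on mTORC1, that of Tsc2 was called lower at 6 h, though not with GC and length offsets. Tsc2 stood at 135 and 126 CPM in the 1 h controls of cortex and hippocampus and at 144 and 154.5 CPM in the pair. At 6 h it stood at 60.1 CPM (cortex control), 58.7 CPM (cortex conditioned), 64.6 CPM (hippocampus control) and 124 CPM (hippocampus conditioned). The last of these nearly reached the 1 h libraries, and the log2 change was -0.96 (SE 0.27, edgeR adjusted p = 0.0221). Tsc1 was the steadiest member, with 45.9 to 63.2 CPM over the 8 libraries and a log2 difference of -0.18 (SE 0.23, adjusted p = 0.547). Ddit4, which activates the TSC complex under stress and is induced by glucocorticoids, ranged from 14.7 to 27.3 CPM at 1 h and from 5.64 to 19.1 CPM at 6 h. These groups overlapped, with a log2 difference of -0.68 (SE 0.35, adjusted p = 0.141). Eef2k stood at 8.18 to 11.01 CPM at 1 h and 4.04 to 9.44 CPM at 6 h (-0.41, SE 0.33, adjusted p = 0.338). In all, 5 of the 9 tested members had 1 h and 6 h libraries that did not overlap, 2 higher and 3 lower at 6 h, where 45.5% of all rows did so, 24.3% higher and 21.2% lower. The members were read with the pair averaged and the rows with the pair summed, each on its own TMM scale. Tsc2 was separated by a small gap (124 against 126 CPM), which may depend on this. Time after the session, time of day and handling cannot be told apart.

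The time difference of the members followed the base composition of their transcripts. Rps6kb1 (39.2% GC) and Rictor (42.5%), the members poorest in G and C, had the positive values, and the members above 54% lay below 0. Over the 9 members the rank correlation of the log2 change with GC content was -0.82, and over 11886 genes of the table it was -0.78. It is a description, since the genes share the same 7 libraries. In the fifth of genes with the lowest GC content (31.2% to 44.5%) the median log2 change was 1.02 and 60.8% were called higher. In the fifth with the highest (56.1% to 71.3%) it was -1.03 and 54.1% were called lower.

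The middle 90 bases of the coding sequence show the contrast for the partner subunits of mTORC1 and mTORC2, with G and C in capitals, read from GENCODE transcripts (GRCm38) on the coding strand.
Rptor, coding bases 1960 to 2049: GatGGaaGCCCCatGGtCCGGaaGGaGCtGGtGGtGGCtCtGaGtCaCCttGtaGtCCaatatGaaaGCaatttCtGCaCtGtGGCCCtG
Rictor, coding bases 2518 to 2607: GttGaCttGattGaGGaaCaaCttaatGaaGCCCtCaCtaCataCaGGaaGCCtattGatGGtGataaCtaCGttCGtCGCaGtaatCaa
The Rptor stretch held 49 G or C bases and the Rictor stretch 37. At the third position of codons, over the whole coding sequence, 66.6% of bases were G or C in Rptor, 47.1% in Rictor and 43.0% in Rps6kb1.

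**Figure D2:**
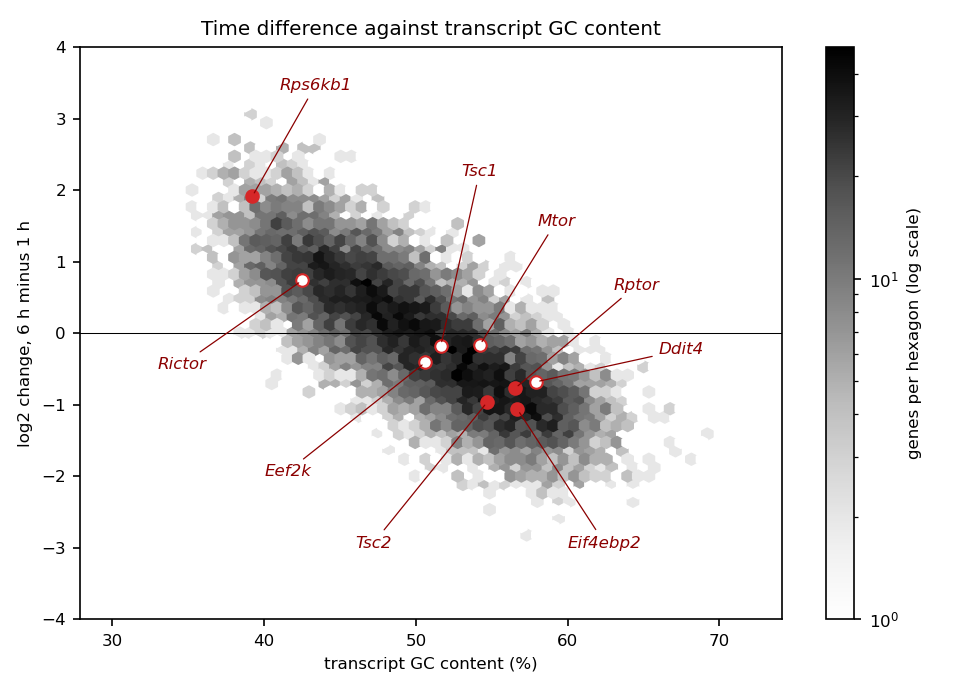
Log2 change from 1 h to 6 h (y axis) against transcript GC content in percent (x axis) for 11886 genes as hexagons shaded by the number of genes, with 9 members as circles, filled where the adjusted p was under 0.05. The members lie along the slope of the whole table, with Rps6kb1 at the upper left (39.2% GC, 1.91) and Eif4ebp2 at the lower right (56.7% GC, -1.06).

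With offsets that remove each library's trend with GC content and length, 0 of the 9 members passed, where 10.7% of rows did. The log2 change was then 0.48 for Rps6kb1 (SE 0.20, edgeR adjusted p = 0.134), -0.05 for Eif4ebp2 (adjusted p = 0.905), -0.12 for Rptor (adjusted p = 0.748) and -0.52 for Tsc2 (adjusted p = 0.106). Rictor was at -0.43 (adjusted p = 0.143), the opposite direction. The value for Eif4ebp2 used 56.7% GC of the 1422-base transcript, and its longest transcript has 52.4%. Without the cortex control 1 h library edgeR passed no row of the table, and the log2 changes were 1.78 (Rps6kb1, adjusted p = 0.071), -1.02 (Eif4ebp2, 0.0832), -0.59 (Rptor, 0.2) and -0.75 (Tsc2, 0.144). Eif4ebp2 also missed without the hippocampus control 1 h library (adjusted p = 0.0505) or the conditioned pair (0.0509). Tsc2 and Rptor missed without any one of the hippocampus control 1 h, cortex control 6 h and cortex conditioned 6 h libraries or the pair. Without the pair the time fit compared control libraries alone. Summed astrocyte markers were also higher at 6 h (1160 to 1588 CPM) than at 1 h (786 to 973 CPM), none of 6 being at 0, and their part in the result was not tested.

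**Figure D3:**
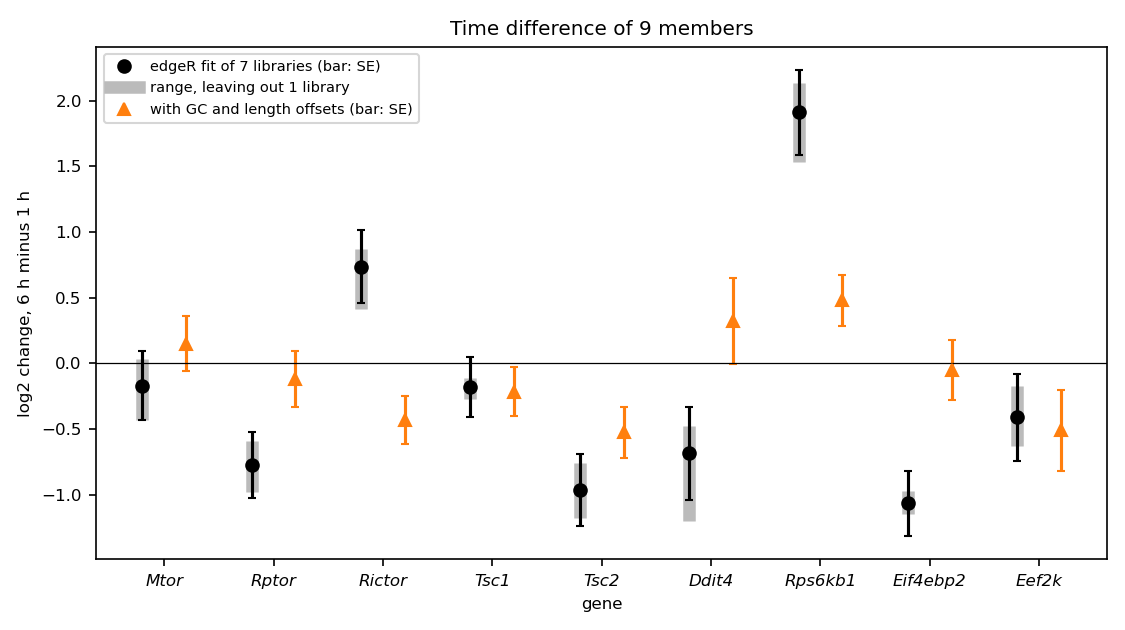
Log2 change from 1 h to 6 h (y axis) for the 9 tested members (x axis). Black circles with SE show the fit of 7 libraries, and orange triangles with SE the fit with GC and length offsets. Grey bars show the range when 1 library other than the summed 1 h pair is left out. The fit without that pair lay outside the bars for Rps6kb1 (2.34), Rictor (0.99), Ddit4 (-0.20) and Eif4ebp2 (-1.17), and inside them for the others. The black circles run from -1.06 (Eif4ebp2) to 1.91 (Rps6kb1), and the triangles from -0.52 (Tsc2) to 0.48 (Rps6kb1).

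The other genes of the pathway were read from 10 lists holding 110 genes, all found in the table. Of 107 tested for time, 24 rose and 27 fell, with a median log2 change of -0.08, against a background of 20.5% higher and 17.2% lower. With GC and length offsets 3 rose and 6 fell, where 10.7% of all rows were called in either direction. Their log2 change had a rank correlation of -0.80 with GC content (107 genes, a description across genes).

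Among growth factor inputs, 6 of 14 rose and 4 fell, where 20.5% of all rows rose and 17.2% fell. Pik3ca, the catalytic subunit of PI3 kinase, went from 23.5 ± 3.16 CPM (SD, n = 3) at 1 h to 82.7 ± 13.2 CPM (n = 4) at 6 h, a log2 change of 1.81 (SE 0.26). Gsk3b, a kinase that AKT inhibits, rose as well (1.15, SE 0.23). Akt2 fell (-1.27, SE 0.26). These genes had edgeR adjusted p from 0.0064 to 0.00909. None of the 14 passed with GC and length offsets.

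Of 9 further subunits and cofactors of the kinase complexes, Deptor, an inhibitor bound to mTOR, rose (1.42, SE 0.37, edgeR adjusted p = 0.0179). Mlst8, a subunit of both complexes, fell from 23.8 ± 1.58 to 11.9 ± 1.99 CPM (-1.04, SE 0.26, adjusted p = 0.0155). Telo2, a cofactor for the folding of mTOR, fell too (-1.09, SE 0.34, adjusted p = 0.032). Neither of 2 tested genes of the list around Rheb passed. Among energy sensors, 3 of 13 rose and 1 fell, where 20.5% of all rows rose and 17.2% fell. The catalytic subunits of AMP-activated kinase were among those that rose, Prkaa2 by 1.27 (SE 0.24) and Prkaa1 by 0.98 (SE 0.34), with Cab39, a scaffold of the kinase LKB1, at 0.88 (SE 0.25), and Prkag1, a regulatory subunit, fell (-0.99, SE 0.29). With GC and length offsets no gene of these 3 lists passed. The catalytic subunits of AMP-activated kinase then turned direction (Prkaa2 -0.05, edgeR adjusted p = 0.895, and Prkaa1 -0.31, adjusted p = 0.371). Prkag1 kept its direction (-0.55, adjusted p = 0.16).

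Of 25 tested amino acid sensing genes of the lysosome, 9 fell and 3 rose, where 17.2% of all rows fell and 20.5% rose. Their median log2 change was -0.77, against -0.03 over all rows, and with offsets it was -0.36, with 2 lower and 1 higher. Fnip1, a partner of folliculin, rose (1.42, SE 0.26, edgeR adjusted p = 0.00667). Wdr24 (-1.25) and Nprl3 (-1.06), components of GATOR2 and GATOR1 in that order, fell with adjusted p of 0.015 and 0.0204. With offsets Fnip1 (-0.04, adjusted p = 0.92), Wdr24 (-0.54, 0.181) and Nprl3 (-0.68, 0.114) did not pass. Wdr59, another GATOR2 subunit (-0.91, adjusted p = 0.0285), was one of 2 then called lower, and Fnip2 (1.05, adjusted p = 0.0286) was called higher. Both were named here after their values were seen.

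Downstream, 2 of 10 genes around the S6 kinases rose and 2 fell, where 20.5% of all rows rose and 17.2% fell. Rps6ka6 (1.62, SE 0.39) and Rps6ka3 (1.03, SE 0.27), which encode kinases of the RSK family, rose. Poldip3, the S6 kinase target SKAR (-0.83, SE 0.24), and Rps6ka2 (-0.91, SE 0.27) fell. Of 12 tested genes of the cap-binding complex, Eif4e, the factor that 4E-BPs bind, rose from 48.5 ± 7.29 to 86.2 ± 14.9 CPM (0.81, SE 0.25, edgeR adjusted p = 0.0281). Eif4g2, a relative of the eIF4G scaffold, rose by 1.09 (SE 0.25), and Mknk2, a kinase that phosphorylates eIF4E, fell (-1.47, SE 0.35). Around the eEF2 kinase, Calm2, which encodes calmodulin, rose (1.22, SE 0.35), and Eef2, the elongation factor it phosphorylates, fell from 636 ± 182 to 299 ± 60.6 CPM (-1.11, SE 0.27, adjusted p = 0.0143). Of 5 autophagy genes downstream of mTORC1, Rb1cc1 rose (2.15, SE 0.37). Ulk1, the kinase that starts autophagy, fell (-1.17, SE 0.29), as did the transcription factor Tfeb (-1.17, SE 0.36). None of the genes named in this group passed with GC and length offsets, and Eif4e (-0.44, adjusted p = 0.222) and Rps6ka3 (-0.27, adjusted p = 0.465) turned direction. Eif4g2 then stood at 0.035, Tfeb at -0.031 and Eef2 at -0.26. The genes of these 4 lists that passed only with offsets were Eif4a2, a helicase of the cap-binding complex (-1.19, adjusted p = 0.0132), and Larp1, which binds TOP messages (0.77, adjusted p = 0.045), both named after their values were seen.

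TOP messages, whose 5′ terminal oligopyrimidine tract places their translation under mTORC1, moved in both directions. Of 13 such genes outside the ribosomal proteins, 4 rose and 5 fell, where 20.5% of all rows rose and 17.2% fell. Their median log2 change was 0.06. Rack1, a scaffold protein of the small ribosomal subunit, fell from 79.2 ± 11.2 to 22.2 ± 7.15 CPM (-1.89, SE 0.29), and Eif3f, an initiation factor subunit, fell from 54.5 ± 4.47 to 26.1 ± 5.19 CPM (-1.09, SE 0.26). Npm1, nucleophosmin, rose (2.41, SE 0.44), with a 6 h mean of 315 CPM and an SD of 324, and Eif3e rose by 1.19 (SE 0.30). The 4 had edgeR adjusted p from 0.0064 to 0.0157. With GC and length offsets Rack1 (-1.65, adjusted p = 0.00754), Npm1 (1.58, 0.0221) and Eif3f (-1.14, 0.0151) still passed, and Eif3e did not (0.22, 0.57). Eef1b2 (-0.96, edgeR adjusted p = 0.032) passed only with offsets and was named after its values were seen.

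**Figure D4:**
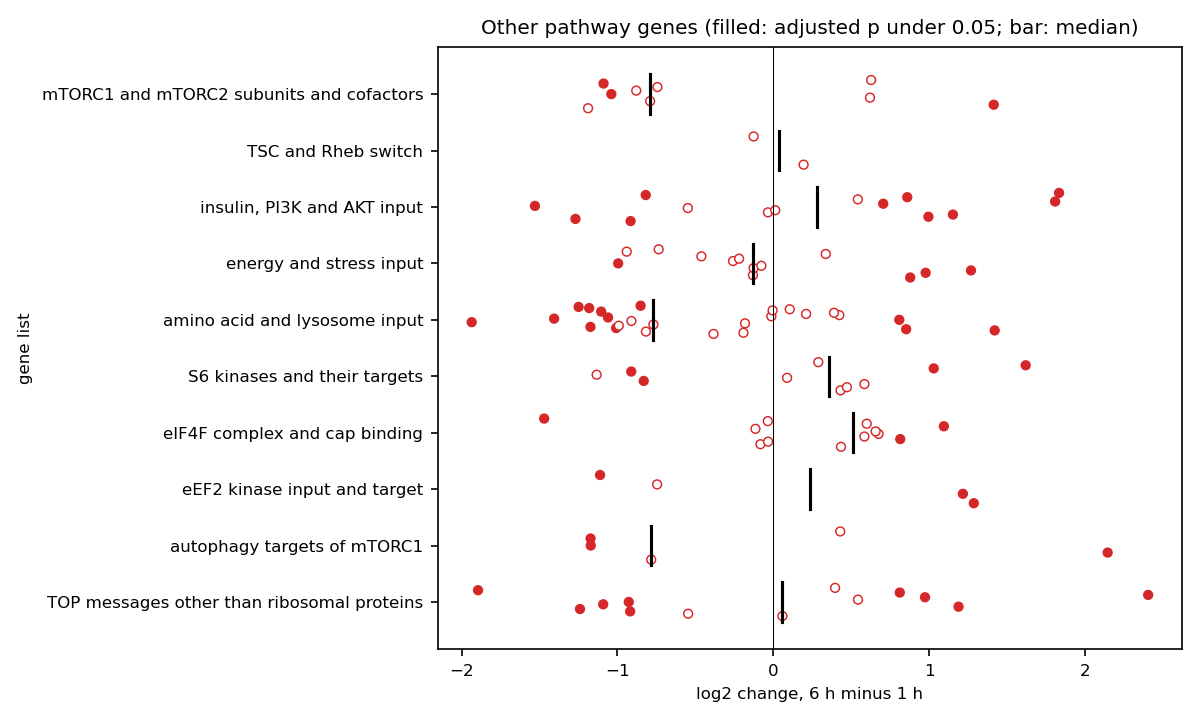
Log2 change from 1 h to 6 h (x axis) of 107 tested genes in 10 pathway lists (y axis), with filled circles for an adjusted p under 0.05 and a black bar at each list's median. Amino acid and lysosome genes have 9 filled circles below 0 and 3 above, and TOP messages 5 below and 4 above. Of all rows, 17.2% were called lower and 20.5% higher.

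The comparison of conditioned with control libraries asks whether the pathway's messages differed after fear conditioning. No member passed, over both times or at 6 h alone, where 0% of rows were called in either fit. Over both times the values lay between -0.53 (Ddit4, SE 0.36) and 0.37 (Tsc2, SE 0.27). Mtor, at 0.02 (SE 0.26), and Eif4ebp2, at 0.04 (SE 0.25), lay closest to 0 on the positive side. Among 16378 rows edgeR called 0, and 296 lay under 0.05 before adjustment. DESeq2 and limma-voom also called 0, with 267 and 327 such rows. At 6 h edgeR and DESeq2 called 0, with 642 and 492 such rows.

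At 6 h the largest fitted differences among the 9 members were those of Ddit4, lower mainly in cortex, and Rps6kb1, lower mainly in hippocampus, and neither passed. Ddit4 had 29 counts (5.64 CPM) in the conditioned and 99 counts (19.1 CPM) in the control cortex library, which is 0.296 of the control (counting interval 0.188 to 0.451). In the hippocampus its ratio was 0.856 (0.522 to 1.44). Over both tissues the log2 difference was -1.06 (SE 0.50, edgeR adjusted p = 0.928, unadjusted p = 0.0461 in a fit of 7 libraries across all genes). Rps6kb1 stood at 56.2 CPM in the conditioned and 154.7 CPM in the control hippocampus library, a ratio of 0.363 (0.304 to 0.434), and at 64.8 against 77.02 CPM in cortex (0.841, 0.725 to 0.975). Its log2 difference over both tissues was -0.85 (SE 0.41, adjusted p = 0.928).

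Tsc2 and Rictor differed beyond counting error between the hippocampus libraries at 6 h, and their cortex intervals included 1. Tsc2 had a ratio of 1.92 (1.56 to 2.38) in hippocampus and 0.978 (0.832 to 1.15) in cortex. Rictor had 0.492 (0.407 to 0.595) in hippocampus and 1.02 (0.872 to 1.19) in cortex. For Mtor (0.864 and 1.08), Rptor (1.20 and 0.983), Tsc1 (0.855 and 1.06), Eif4ebp2 (1.28 and 0.96) and Eef2k (2.02 and 0.721), in hippocampus and cortex in that order, every interval included 1. Each ratio rests on 1 library a side, and its interval, exact at 95%, covers counting error only. The hippocampus control 6 h library is the one that stood apart, and its trend with GC content and length held 46.6% of the variance of its deviations from the gene means. That of the hippocampus conditioned 6 h library held 7.44%. A strong trend was not particular to the former, as the summed 1 h pair had 56.5% and the cortex control 1 h library 45.4%. The part of these trends in the hippocampus ratios themselves was not tested. Over both tissues at 6 h, GC and length offsets took the log2 difference from -0.85 to -0.32 for Rps6kb1. They took it from -0.51 to -0.04 for Rictor, from 0.49 to 0.26 for Tsc2 and from -1.06 to -1.58 for Ddit4. None of these passed in either fit.

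**Figure D5:**
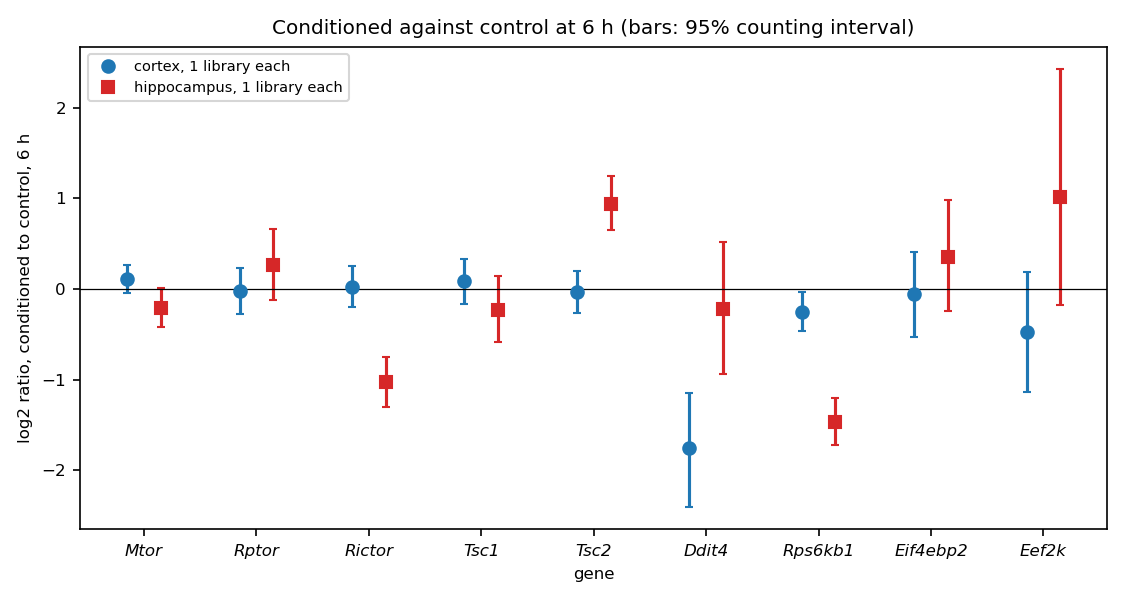
Log2 ratio of conditioned to control CPM at 6 h (y axis) for 9 members (x axis), with blue circles for cortex and red squares for hippocampus, 1 library a side, and bars for the 95% counting interval. Ddit4 lies lowest in cortex (-1.76) and Rps6kb1 lowest in hippocampus (-1.46), where Tsc2 lies at 0.94.

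Whether the training difference at 6 h departed from that at 1 h was tested directly. No member passed, with 0% of rows called by edgeR (73 under 0.05 before adjustment, 29 by DESeq2, which also called 0) and an adjusted p of 1 for each member. The widest values were -1.14 (SE 0.74) for Ddit4 and -1.02 (SE 0.64) for Rps6kb1, whose standard errors leave room for changes in either direction. At 1 h the conditioned pair lay within 0.39 on the log2 scale of the mean of the controls for all 10 members, from -0.39 (Eif4ebp1) to 0.22 (Rptor).

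The tissues were compared without the conditioned 1 h pair, 3 libraries against 3. No member passed, where 3.72% of 16123 rows were called, 1.72% higher and 2.0% lower in hippocampus. The values were 0.54 for Ddit4 (SE 0.40), 0.39 for Eif4ebp2 (SE 0.35), 0.38 for Rps6kb1 (SE 0.34), 0.35 for Tsc2 (SE 0.34), 0.24 for Rictor (SE 0.33), -0.17 for Tsc1 (SE 0.32), -0.24 for Mtor (SE 0.33), -0.29 for Eef2k (SE 0.43) and -0.37 for Rptor (SE 0.33), positive in hippocampus, with edgeR adjusted p from 0.646 to 0.895. Cortex and hippocampus libraries overlapped for each of the 9. Those of Eif4ebp1, which was not tested, did not (cortex 0.77 to 1.31 CPM, hippocampus 0 to 0.699 CPM), on 0 to 6 counts a library. Of the pathway lists, 1 of 107 tested genes passed: Ddit4l, a relative of Ddit4, was lower in hippocampus (-1.34, adjusted p = 0.0388).

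The genes whose log2 CPM followed Mtor most closely over the 7 libraries, among 6497 genes, were Pacs1 (Pearson r of 0.99), Pi4ka (0.97) and Trim9 (0.96). Those closest to Eif4ebp2 included Camkv (0.99) and Marcksl1 (0.98), with log2 time changes of -1.16 and -0.85. Within the set, Rictor and Rps6kb1 had an r of 0.95 and Tsc2 and Eif4ebp2 one of 0.90, while Rps6kb1 had -0.85 with Eif4ebp2 and -0.83 with Tsc2. These are descriptions over 7 libraries that share the base composition trend.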

How the data were processed

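RNA from polyribosomes (200 ng a library) was depleted of ribosomal RNA and reverse transcribed from hexamer and poly A primers, then amplified isothermally and by PCR, per the labels' protocols. The authors deposited raw counts per RefSeq transcript. The tools listed are limma 3.12.3, edgeR 2.612, TopHat 1.3.1 and CASAVA 1.7, with build mm9 and no role for each, per the submitters' processing notes. No source used here states strand use or how shared reads were counted, so isoforms and overlapping genes may share reads. Symbols were matched for 97.9% of 28157 rows (RefSeq and GENCODE, GRCm38), and no coordinates were used.

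The members, lists and tests were chosen with earlier results of these data known. In R 4.3.3, edgeR 4.0.16 quasi-likelihood fits (TMM factors, default low-count filter, Benjamini-Hochberg at 0.05) were additive in tissue, training and time, with the agreeing 1 h conditioned pair summed and coded halfway between the tissues, which leaves 3 residual degrees of freedom. Training at 6 h was nested in time. Tissue was fitted on 6 libraries with the combination of training and time as a block. SE is the log2 change divided by the root of F. The time fit was tested on simulated data, and the other fits were not. Alternatives used DESeq2 1.42.0, limma 3.58.1, other factors, no filter, summed rows, GC and length offsets, and left-out libraries. CPM values carry TMM factors, and log2 strata used a prior count of 2. Named list genes were up to 4 of smallest p per list that passed for time, or passed for tissue. Some genes that this rule names are not reported here.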

Additional observations from a re-analysis of the deposited data

Results flagged for a closer look

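Among 20 groups of 4 libraries examined (10 members, at 6 h and in controls), 3 held a library far from the rest. Chance flags about 1 in 20 groups where the 4 values are independent draws of 1 kind. These groups share libraries and mix tissue with training or time, so their count cannot be set against that rate. Rictor had a log2 CPM of 6.87 in the hippocampus control 6 h library, where the other 6 h libraries had 5.85 to 6.01. Tsc2 had 6.96 in the hippocampus conditioned 6 h library, where the other 6 h libraries had 5.89 to 6.03. Eef2k had 2.18 in the hippocampus control 6 h library, where the other controls had 3.31 to 3.52, on 7 counts.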

How the results depend on the processing

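Time calls (6167 rows, 4 members) moved most. The conditioned 1 h pair was the only conditioned material at 1 h. Without it the time fit compared control libraries alone, and the training fit compared 6 h libraries alone. GC and length offsets left 1701 rows and 0 members, leaving out the conditioned 1 h pair left 3745 rows and 1 member, and leaving out that pair and the hippocampus control 6 h library (chosen after seeing the data) left 1128 rows and 1 member. Leaving out 1 library gave 0 to 7327 rows and 0 to 5 members, with 0 rows without cortex control 1 h, 1830 without hippocampus control 1 h and 2540 without cortex conditioned 6 h. Rps6kb1 missed the threshold with the offsets and without cortex control 1 h, and passed under every other alternative run. Ddit4 passed without cortex control 6 h (-1.20, adjusted p = 0.0338), and Rictor with 8 libraries as labelled (0.70, 0.0418) and without hippocampus conditioned 6 h (0.87, 0.0238). Tissue calls (600 rows) became 921 with no filter, 346 with rows of a gene summed, 995 with offsets and 0 with 8 libraries, and 200 to 874 with 1 library left out, the lowest being without hippocampus control 1 h, followed by 218 without cortex control 1 h and 356 without hippocampus conditioned 6 h. The interaction called 1 row with offsets, C1ql2 (-5.53, SE 0.75, edgeR adjusted p = 0.0115). C1ql2 is among the markers of hippocampal excitatory neurons and was at 0 in at least 1 library. The 1 h side of the interaction rests on the conditioned pair, which has no single tissue. The part of either in that call was not tested. Training calls stayed at 0 under the alternatives run.

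Of the alternative values, 39 turned direction, and none of those passed. With offsets the time values were 0.15 (Mtor), -0.43 (Rictor) and 0.32 (Ddit4), and Ddit4 was at 0.44 without the pair and hippocampus control 6 h. With offsets the training values were -0.10 (Mtor), -0.10 (Rptor), 0.012 (Rictor) and -0.24 (Eif4ebp2), those at 6 h were -0.21 (Rptor) and -0.37 (Eif4ebp2), and those of the interaction were 0.046 (Tsc1) and -0.29 (Eif4ebp2). Training values for Mtor were -0.016 with RLE factors, -0.017 with DESeq2 and -0.0599 without the pair. They were 0.0063 for Tsc1 with no filter, -4.4e-05 for Eif4ebp2 with DESeq2 and 0.12 for Eef2k without the pair. The training values without the pair rest on the 6 h libraries alone. Leaving out 1 library other than the pair gave these ranges across 0. Mtor had time -0.43 to 0.037, tissue -0.51 to 0.10 and training -0.13 to 0.24. Eef2k had tissue -0.61 to 0.0396 and training -0.34 to 0.12. Rictor had tissue -0.11 to 0.45 and training -0.38 to 0.054. Training ran from -0.066 to 0.075 for Eif4ebp2 and from -0.094 to 0.0604 for Tsc1, and tissue from -0.019 to 0.60 for Tsc2. The cause was not tested. No block on replicate numbers could be fitted, since the labels carry none, and the tissue fit pairs cortex with hippocampus by training and time instead. Depth limits Eif4ebp1 (27 counts) and Eef2k (7 counts in the smallest library).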
